A study of Mus musculus with 6 samples.

Results

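The heterogeneous nuclear ribonucleoproteins (hnRNPs) F, H and L, the polypyrimidine tract binding (PTB) proteins and the poly(C)-binding protein Pcbp2 are RNA-binding proteins that decide which exons are joined into mRNA. Their 10 genes, Hnrnpf, Hnrnph1, Hnrnph2, Hnrnph3, Hnrnpl, Hnrnpll, Ptbp1, Ptbp2, Ptbp3 and Pcbp2, were chosen by name, and all 10 were found among the 52550 genes of the count table and passed the filter on low counts. Hippocampal RNA of 3 control libraries (wild type in the labels) and 3 L-DL KD libraries was compared. The aim was to ask how loss of L-DL, the long isoform of the splicing factor hnRNP D-like, changes RNA splicing. By the study's methods, the mice were male C57BL/6 J. When 8 weeks old, both groups were given adeno-associated virus (AAV) into CA1, the controls with control shRNA and the L-DL KD mice with L-DL shRNA. The methods give the control virus a higher titre, place 4 tandem shRNAs under the H1 promoter, and use a CamkIIα promoter for the fluorescent marker only, so that the knockdown itself was not limited to neurons by a promoter. The labels call the L-DL KD mice hnRNP DL KD in one field and hnRNP DL-/- in another, whereas the methods describe a knockdown. The labels do not say that each library came from 1 separate animal, and the p-values measure only the spread between these libraries.

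PTB proteins bind pyrimidine-rich RNA and mostly hold exons back. Ptbp1 is the form of dividing cells and glia, Ptbp2 is its neuronal paralog, and Ptbp1 is known to keep Ptbp2 low by making its transcript skip an exon, after which the RNA is degraded by nonsense-mediated decay (NMD). hnRNP F and hnRNP H proteins bind runs of G, hnRNP L and its paralog hnRNP LL bind CA-rich RNA, and Pcbp2 binds runs of C. Several of these proteins also bind their own transcripts and those of their paralogs.

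The exons on which the splicing results turn are shown from the GENCODE transcript sequences (release M21, genome GRCm38, sense strand). The exon by which PTB transcripts are switched to decay is 34 nt long in both Ptbp1 (exon 10 of 14 in its longest coding transcript, chr10:79862014-79862047, plus strand) and Ptbp2 (exon 10 of 14, chr3:119724612-119724645, minus strand). All 3 annotated coding transcripts of each gene that cover the place include it, and the 2 transcripts of each gene that skip it are annotated as NMD targets. Capitals mark the 26 of 34 positions at which the exons of both genes carry the same base.
Ptbp1 34 nt exon: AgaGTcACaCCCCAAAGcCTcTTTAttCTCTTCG
Ptbp2 34 nt exon: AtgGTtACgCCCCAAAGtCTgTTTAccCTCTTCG

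A second pair of sister exons, 139 nt long, codes for part of the protein in Hnrnph3 (exon 3 of 10, chr10:63018760-63018898, minus strand) and Hnrnph1 (exon 6 of 15, chr11:50381459-50381597, plus strand). Capitals mark the 126 of 139 positions that are the same, and the pair is shown because inclusion differed between the groups in one of them only by the unadjusted test. The motif GGG, searched on the sense strand with overlapping matches counted, was found 8 times in the Hnrnph3 exon and 7 times in that of Hnrnph1, and 78.5% of the 969 internal exons of 139 nt in annotated coding transcripts hold it.
Hnrnph3 139 nt exon: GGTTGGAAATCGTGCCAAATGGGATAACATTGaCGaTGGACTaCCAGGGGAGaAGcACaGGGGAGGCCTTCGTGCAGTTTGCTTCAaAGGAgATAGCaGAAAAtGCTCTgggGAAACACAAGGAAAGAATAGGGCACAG
Hnrnph1 139 nt exon: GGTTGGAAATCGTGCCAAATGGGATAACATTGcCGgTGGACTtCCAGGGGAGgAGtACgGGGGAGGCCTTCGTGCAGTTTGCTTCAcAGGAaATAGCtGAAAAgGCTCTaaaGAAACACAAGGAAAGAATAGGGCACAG

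The 78 nt exon of Ptbp1 (exon 8 of 14, chr10:79860117-79860194, plus strand) is coding, keeps the reading frame and is absent from 2 other coding transcripts. It is shown because it had the largest PSI difference among the tested segments of the 10 genes. Capitals mark GGG, found once here and in 50.7% of 1324 internal coding-transcript exons of this length.
Ptbp1 78 nt exon: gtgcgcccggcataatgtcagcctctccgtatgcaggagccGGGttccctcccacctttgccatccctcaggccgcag

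Reads counted on genes totalled 16052529 to 16995425 per control library and 16525467 to 17913064 per L-DL KD library. Hnrnpdl, which encodes L-DL, was measured at 176, 184 and 171 CPM (counts scaled by edgeR's TMM method to libraries of 1000000 reads) in the controls and at 217, 150 and 173 CPM in libraries labelled L-DL KD. On the log2 scale this was a change of 0.026 (standard error 0.12, adjusted p = 0.898 by the quasi-likelihood test of edgeR, adjusted after Benjamini and Hochberg), so no fall of the targeted gene was detectable in a count that covers all its isoforms, and directions below are those of the libraries labelled L-DL KD. Of 17621 genes tested by edgeR, 30.5% had an adjusted p under 0.05, 15.6% being called higher and 15.0% called lower under the L-DL KD label. The CPM of the groups did not overlap in 47.2% of genes.

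Cell type markers moved with the groups. All 10 microglial markers were called higher (edgeR adjusted p under 0.05), among them Cx3cr1 (log2 fold change 1.53) and Csf1r (1.34), and their summed CPM ranged from 1184 to 1479 in the controls and from 2544 to 3256 in libraries labelled L-DL KD. Of 10 neuronal markers, 8 were called lower, among them Rbfox3 (log2 fold change -1.35) and Camk2a (-0.73), 1 was called higher (Nefl, 0.88) and 1 was not called, and their summed CPM ranged from 8921 to 9328 and from 5498 to 6192. Of 7 endothelial markers, 4 were called higher, of 8 astrocyte markers 2 higher and 3 lower, of 8 oligodendrocyte markers 1 higher and 1 lower, and of 6 lymphocyte markers none. Markers of hippocampal neurons were present, with 1 of 5 called higher and 2 lower, Neurod6 at a log2 fold change of -2.21 among them. In bulk tissue, fewer cells of a type and less RNA per cell cannot be told apart, and the part of cell makeup in the results on the 10 genes was not tested.

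Of the 10 genes, 5 passed the test by edgeR. Ptbp1, Ptbp3, Hnrnpf and Hnrnpl rose in libraries labelled L-DL KD and Ptbp2 fell, whereas Hnrnph1, Hnrnph2, Hnrnph3, Hnrnpll and Pcbp2 did not pass. These 5 of 10 stand beside the 30.5% of all genes. The median log2 fold change over the 10 genes was -0.034, beside 0.0059 over all genes tested.

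**Figure D1:**
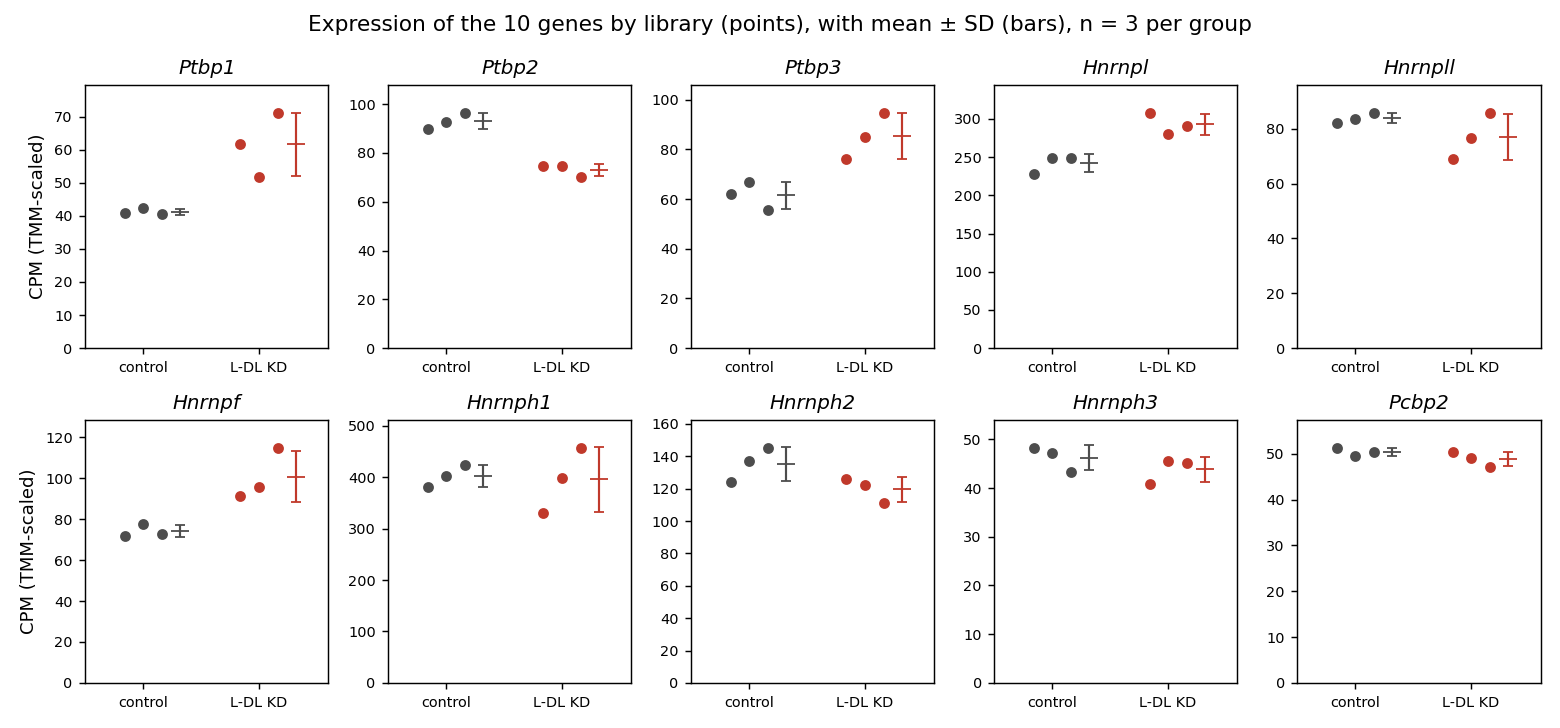
Expression of the 10 genes in CPM (vertical axis, from 0) in each of 3 control and 3 L-DL KD libraries (points), with the group mean and SD (bars). Ptbp1, Ptbp3, Hnrnpl and Hnrnpf lie higher in every L-DL KD library than in any control, Ptbp2 lies lower, and the groups overlap in the 5 other genes.

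The PTB genes moved in opposite directions. Ptbp1 was measured at 40.7, 42.2 and 40.6 CPM in the controls and at 61.8, 51.9 and 71.0 CPM in libraries labelled L-DL KD. All 3 of these lay above all controls, and they were spread more widely than the controls. From 41.2 ± 0.919 CPM to 61.6 ± 9.59 CPM (SD, n = 3 each), Ptbp1 rose 1.49-fold (log2 fold change 0.58, standard error 0.11, edgeR adjusted p = 0.00678), the largest change among the 10 genes.

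Ptbp2, the neuronal paralog, was measured at 89.9, 92.8 and 96.3 CPM in the controls and at 74.5, 74.6 and 70.3 CPM in libraries labelled L-DL KD. The groups did not overlap, and each was tight. It fell from 93.0 ± 3.21 to 73.2 ± 2.45 CPM (SD, n = 3 each), to 0.786 of the control level (log2 fold change -0.35, standard error 0.065, edgeR adjusted p = 0.00573).

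Ptbp3, a paralog best known from blood cells, was measured at 62.0, 66.8 and 55.7 CPM in the controls and at 76.3, 85.1 and 94.6 CPM in libraries labelled L-DL KD. Every one of the latter was higher than every control. It rose 1.39-fold, from 61.5 ± 5.56 to 85.4 ± 9.17 CPM (SD, n = 3 each; log2 fold change 0.47, standard error 0.10, edgeR adjusted p = 0.0102).

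Levels of different genes can be compared only per length. Per kb of merged exons, Ptbp2 had the highest level of the PTB genes in each control (9.80, 10.1 and 10.5 CPM per kb), above Ptbp1 (8.59, 8.91 and 8.56) and Ptbp3 (8.29, 8.93 and 7.45), which overlapped. In libraries labelled L-DL KD, Ptbp2 had the lowest level of the PTB genes (8.13, 8.13 and 7.66 CPM per kb), below Ptbp1 (13.0, 10.9 and 15.0) and Ptbp3 (10.2, 11.4 and 12.7), which again overlapped. The Ptbp1 to Ptbp2 ratio per kb was 0.877, 0.881 and 0.815 in the controls and 1.61, 1.35 and 1.96 in libraries labelled L-DL KD (two-sided exact permutation test, p = 0.1, the smallest that 3 against 3 libraries can give). As Ptbp1 was higher and Ptbp2 lower without overlap, the ratio had to separate, and its test adds nothing to the single genes. The merged exons of Ptbp1 span 4740 nt and those of Ptbp2 9175 nt, so that the order within a library depends on how much of these models the tissue uses, while the change between libraries does not depend on that length.

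**Figure D2:**
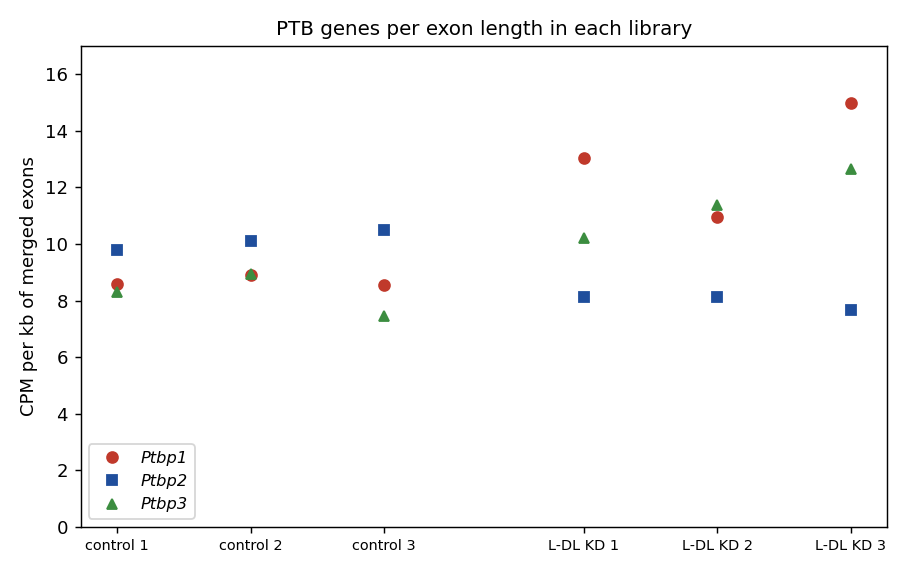
Level of Ptbp1 (circles), Ptbp2 (squares) and Ptbp3 (triangles) in CPM per kb of merged exons (vertical axis, from 0) in each library (horizontal axis). Ptbp2 is the highest of the 3 genes in every control and the lowest in every L-DL KD library.

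The counts of splice junction reads gave a second view of these genes, since such reads lie on the gene's own exons. In the Ptbp1 segment with the most junction reads, the level, as CPM of all junction counts, was 25.9, 27.5 and 26.8 in the controls and 40.4, 41.6 and 53.7 in libraries labelled L-DL KD, a ratio of means of 1.69. For Ptbp3 this ratio was 1.82, on 33 to 94 reads per library, and for Ptbp2 0.729. In these segments the groups did not overlap in any of the 3 genes. Other Ptbp3 segments differed. Reads of a 15 nt stretch numbered 26, 22 and 24 in the controls and 67, 67 and 70 in libraries labelled L-DL KD. In a 9 nt stretch they numbered 37, 35 and 31 and then 28, 40 and 48, with overlap. In the 34 nt exon they numbered 48, 41 and 35 and then 45, 46 and 54, also with overlap. Ptbp1 overlaps Plppr3, which lies on the opposite strand, and the sources used here do not say whether gene counting used strand, so that reads of their shared stretch cannot be told apart in the gene counts.

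hnRNP L and hnRNP LL are paralogs that act on exons of neuronal and lymphocyte genes. Hnrnpl was measured at 228, 248 and 249 CPM in the controls and at 308, 280 and 291 CPM in libraries labelled L-DL KD, with no overlap. It rose 1.21-fold, from 242 ± 11.8 to 293 ± 13.8 CPM (SD, n = 3 each; log2 fold change 0.28, standard error 0.069, edgeR adjusted p = 0.0184). This call was lost when any one control library was left out, with edgeR adjusted p = 0.0826, 0.0537 and 0.0511 without control replicates 1, 2 and 3, although the rise stayed positive. In its junction segment with the most reads, the groups overlapped, at a ratio of means of 1.11.

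Hnrnpll was measured at 82.2, 83.5 and 85.7 CPM in the controls and at 68.8, 76.7 and 85.6 CPM in libraries labelled L-DL KD. The third of these reached the control range and the others lay below it. Its log2 fold change of -0.12 (standard error 0.088) did not pass the test (edgeR adjusted p = 0.333). The Hnrnpl to Hnrnpll ratio per kb was 5.44, 5.83 and 5.69 in the controls and 8.77, 7.17 and 6.66 in libraries labelled L-DL KD (two-sided exact permutation test, p = 0.1, the smallest possible).

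Of the hnRNP F/H genes, whose proteins share G-run binding, Hnrnpf alone passed the test. Hnrnpf was measured at 72.0, 77.6 and 73.0 CPM in the controls and at 91.5, 95.9 and 115 CPM in libraries labelled L-DL KD, which all lay above the controls. It rose 1.36-fold, from 74.2 ± 2.97 to 101 ± 12.4 CPM (SD, n = 3 each; log2 fold change 0.44, standard error 0.095, edgeR adjusted p = 0.0104). Its most covered junction segment gave a ratio of means of 1.31, also without overlap. The Hnrnpf to Hnrnph2 ratio per kb was 0.831, 0.812 and 0.721 in the controls and 1.04, 1.13 and 1.49 in libraries labelled L-DL KD (two-sided exact permutation test, p = 0.1, the smallest possible), and no such ratio was tested against Hnrnph1 or Hnrnph3.

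Leaving aside Pcbp2, whose gene count is uncertain as a level, Hnrnph1 had the highest level per length, 68.9 ± 3.76 CPM per kb in the controls and 67.7 ± 10.8 CPM per kb in libraries labelled L-DL KD (SD, n = 3 each). Its library values were 380, 403 and 424 CPM in the controls and 331, 399 and 457 CPM in libraries labelled L-DL KD, which reached both below and above the control range. The log2 fold change was -0.025 (standard error 0.11, edgeR adjusted p = 0.894), and its sign turned when control replicate 3 (0.012) or L-DL KD replicate 1 (0.091) was left out.

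Hnrnph2, the X-linked paralog, was measured at 124, 137 and 145 CPM in the controls and at 126, 122 and 111 CPM in libraries labelled L-DL KD, with overlap (log2 fold change -0.18, standard error 0.083, edgeR adjusted p = 0.138). Hnrnph3, the shortest family member, was measured at 48.3, 47.1 and 43.4 CPM and at 40.8, 45.5 and 45.2 CPM, with overlap (log2 fold change -0.077, standard error 0.081, edgeR adjusted p = 0.512). Hnrnph3 overlaps Rufy2 on the opposite strand, and reads of the shared stretch cannot be told apart in the gene counts.

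Pcbp2 was measured at 51.3, 49.4 and 50.4 CPM in the controls and at 50.4, 49.1 and 47.1 CPM in libraries labelled L-DL KD. The groups overlapped and the log2 fold change was -0.044 (standard error 0.067, edgeR adjusted p = 0.662). The gene count of Pcbp2, which overlaps Map3k12 on the opposite strand, is uncertain as a level. It averaged 841 reads per library, fewer than the 1491 junction reads that a single constitutive exon of Pcbp2 gathered, and in none of the 9 other genes was the gene count below its most covered junction segment. That segment gave 208, 201 and 186 CPM of all junction counts in the controls and 210, 211 and 206 in libraries labelled L-DL KD (a ratio of means of 1.054).

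**Figure D3:**
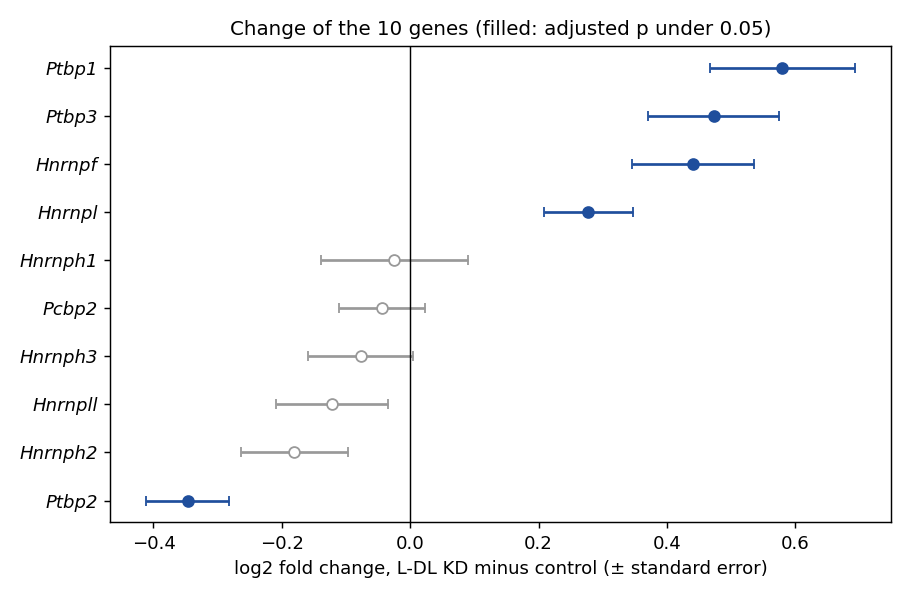
Log2 fold change of the 10 genes between L-DL KD and control libraries (horizontal axis, with standard error as bars), ordered by size. Filled points mark the 5 genes with an edgeR adjusted p under 0.05, Ptbp2 on the negative side and Hnrnpl, Hnrnpf, Ptbp3 and Ptbp1 on the positive side.

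Genes of related function gave a mixed picture. Of 21 other hnRNP genes, 7 (33.3%) passed the test by edgeR, 4 higher and 3 lower, at a median log2 fold change of 0.026, a share near the 30.5% of all genes. Hnrnpul1 (log2 fold change 0.26, adjusted p = 0.0131) and Hnrnpk, a C-run binding relative of Pcbp2 (0.23, adjusted p = 0.0321), had the lowest p among those that rose. Rbmx, the X-linked hnRNP G (-0.27, adjusted p = 0.0129), and Hnrnpa0 (-0.38, adjusted p = 0.0224) had the lowest p among those that fell.

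Of 15 genes whose proteins work with PTB or compete with it on neuronal exons, 14 were tested and 7 passed by edgeR, beside 30.5% of all genes, 1 higher and 6 lower, at a median log2 fold change of -0.26. Nova1, a neuronal splicing factor, rose from 42.5 ± 1.07 to 51.2 ± 0.316 CPM (SD, n = 3 each; log2 fold change 0.27, adjusted p = 0.0179 by edgeR). Rbfox3, the neuronal splicing factor known as NeuN, fell from 250.0 ± 5.61 to 98.0 ± 12.5 CPM, and Rbfox2 from 311 ± 8.47 to 167 ± 6.60 CPM (SD, n = 3 each), both at adjusted p = 0.000135 by edgeR. Raver1, a PTB co-repressor, was listed at 0 in all 6 libraries and could not be tested. Whether this 0 comes from the way reads were counted was not tested, and it is not read as absence of expression. The list holds Rbfox3, which is also among the neuronal markers above.

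The splicing table lists 51 events in the 10 genes, of which 39 had enough junction reads for the test. Inclusion is given as PSI, the share of transcripts with the segment, from inclusion and skipping junction reads divided by the effective length of each form. No event of the 10 genes had an adjusted p under 0.05 by edgeR, beside 0.255% of all 18829 events tested, and the lowest adjusted p was 0.201. At an unadjusted p under 0.05 there were 7 of 39 events (17.9%), of which 3 had higher and 4 lower inclusion under the L-DL KD label, beside 13.3% of all events. This count of 7 became 4 without the second control, the second L-DL KD or the third L-DL KD library of the splicing table (10.8%, 10.3% and 11.8% of the member events tested, beside 10.4%, 11.3% and 10.7% of all events). By limma on the log2 ratio of the forms, 0 events of the 10 genes passed the adjustment, and 1 of 39 (2.56%) had an unadjusted p under 0.05, beside 12.6% of all events. That one, a 60 nt exon of Hnrnph1 included at mean PSI 0.996 and 0.999 in the control and L-DL KD groups, is none of the 7, whose unadjusted p by limma ranged from 0.0507 to 0.0844. PSI of the groups did not overlap in 9 of the 39 events (23.1%), beside 18.4% of all events. The differences below are therefore described one by one and none of them passed the adjustment for all events.

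The 34 nt exon of Ptbp2 had PSI 0.949, 0.914 and 0.871 in the controls and 0.786, 0.872 and 0.784 in libraries labelled L-DL KD. The highest of the latter just reached the lowest control. Reads that skip the exon, as the annotated NMD transcripts do, numbered 6, 10 and 17 in the controls and 23, 14 and 18 in libraries labelled L-DL KD, while inclusion reads numbered 136, 130 and 140 and then 103, 117 and 80. Mean PSI was 0.911 ± 0.0391 and 0.814 ± 0.0505 (SD, n = 3 each), a difference of -0.0971 (edgeR unadjusted p = 0.0390, adjusted p = 0.354). The unadjusted p rose above 0.05 when 4 of the 6 libraries, the first or the second control or the first or the third L-DL KD library, were left out one at a time, to 0.142 at most.

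The sister exon of Ptbp1 had PSI 0.887, 0.938 and 0.922 in the controls and 0.967, 0.980 and 0.917 in libraries labelled L-DL KD. The values overlapped, and the mean difference of 0.0394 had the opposite sign to that in Ptbp2 (edgeR unadjusted p = 0.196, adjusted p = 0.619), without a test of one exon against the other. Between 77 and 175 junction reads per library covered it. Without the third L-DL KD library its edgeR unadjusted p was 0.0473, at an adjusted p of 0.455. The 34 nt exon of Ptbp3, a coding exon near the start of that gene (chr4:59546149-59546182, exon 2 of 15 in its longest coding transcript), is no sister of these exons. Its PSI was 0.271, 0.321 and 0.0713 in the controls and 0.190, 0.205 and 0.273 in libraries labelled L-DL KD (edgeR unadjusted p = 0.946), on 35 to 54 reads per library.

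The 78 nt exon of Ptbp1, which lengthens the linker before the third RNA-binding domain, had PSI 0.602, 0.408 and 0.616 in the controls and 0.380, 0.374 and 0.324 in libraries labelled L-DL KD. All of the latter lay below the lowest control, which stood apart from the other two controls. Mean PSI was 0.542 ± 0.116 and 0.359 ± 0.0309 (SD, n = 3 each), a difference of -0.183 (edgeR unadjusted p = 0.0326, adjusted p = 0.339). The unadjusted p rose above 0.05, to 0.127 at most, without the first or the third control or the second or the third L-DL KD library. Reads of the skipping form numbered 24, 44 and 30 in the controls and 85, 87 and 106 in libraries labelled L-DL KD, and those of the inclusion form 55, 46 and 73 and then 79, 79 and 77. Before scaling to depth, both forms had more reads in every one of these libraries, and the skipping form gained the larger share. The closest inclusion counts, 73 and 77, came from libraries of 6760349 and 7153540 junction counts, so a rise of the inclusion form in every library is not shown. A 57 nt form of this exon was not listed for Ptbp1.

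**Figure D4:**
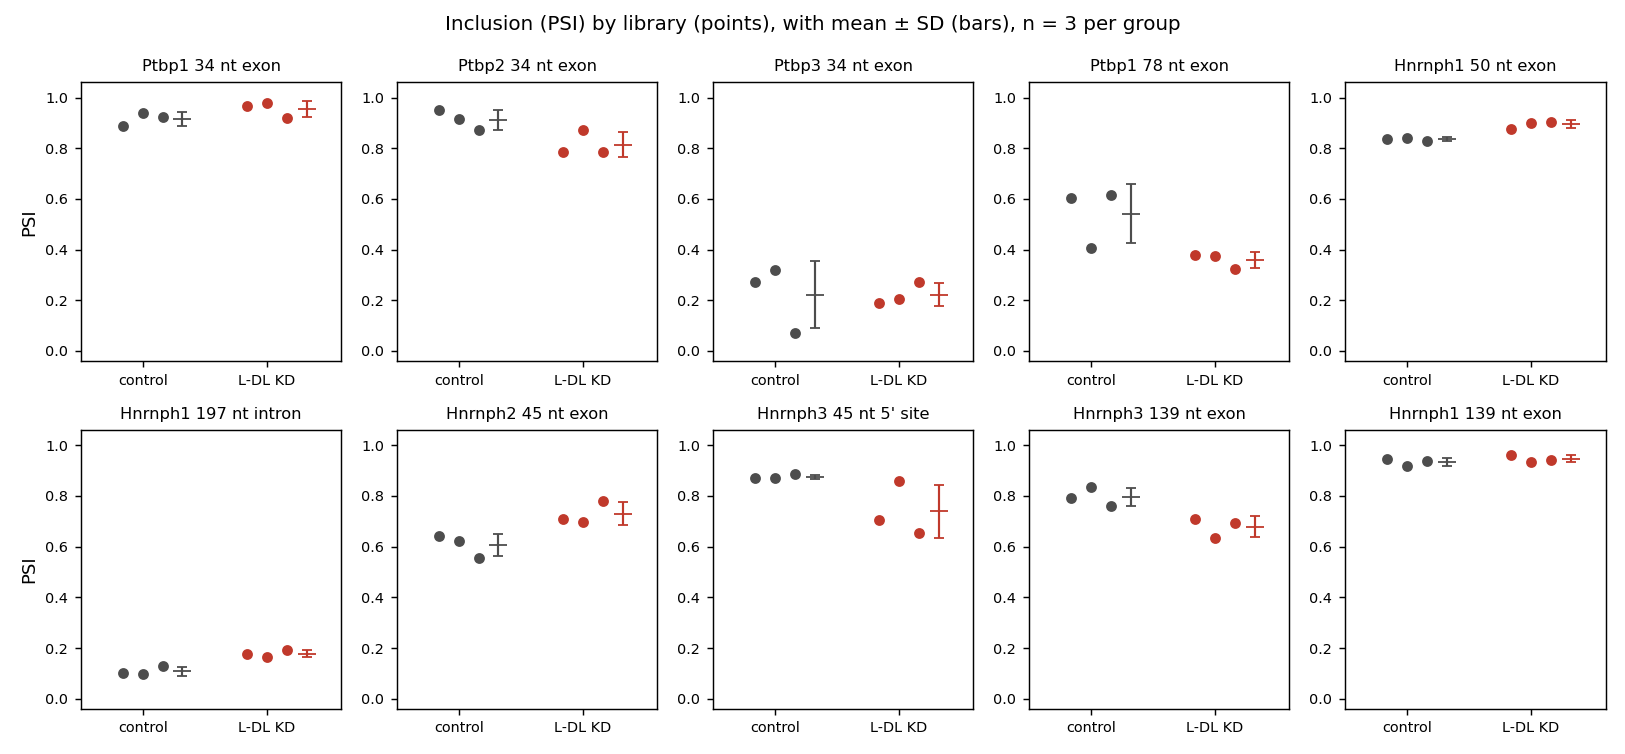
PSI (vertical axis, share of transcripts with the segment) of 10 segments of the PTB and hnRNP H genes in each of 3 control and 3 L-DL KD libraries (points), with mean and SD (bars). Inclusion of the Ptbp1 78 nt and Hnrnph3 139 nt exons is lower in every L-DL KD library, that of the Hnrnph1 50 nt and Hnrnph2 45 nt exons is higher, and the groups touch or overlap in the 34 nt exons of the PTB genes.

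Within the hnRNP H family, the sister exons of 139 nt were compared side by side. In Hnrnph3 the exon had PSI 0.790, 0.835 and 0.762 in the controls and 0.711, 0.633 and 0.694 in libraries labelled L-DL KD, without overlap. Its mean PSI was 0.796 ± 0.0366 and 0.679 ± 0.0407 (SD, n = 3 each), a difference of -0.116 (edgeR unadjusted p = 0.0209, adjusted p = 0.299), and the unadjusted p rose above 0.05, to 0.0944 at most, without the second control or the second L-DL KD library. Its length is no multiple of 3, and 1 coding and 1 NMD transcript of the annotation lack it. In Hnrnph1 the sister exon had PSI 0.945, 0.918 and 0.940 in the controls and 0.963, 0.935 and 0.944 in libraries labelled L-DL KD (edgeR unadjusted p = 0.402), with overlap and on 561 to 857 reads per library.

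A second segment of Hnrnph3, the last 45 nt of an exon with a choice of 5′ splice sites (chr10:63018041-63018085, minus strand, coding), had PSI 0.872, 0.869 and 0.885 in the controls and 0.704, 0.858 and 0.654 in libraries labelled L-DL KD. One of the latter lay close to the controls and the others well below. The mean difference was -0.136 (edgeR unadjusted p = 0.0176, adjusted p = 0.286), and the unadjusted p rose above 0.05, to 0.0885 at most, without the first or the third L-DL KD library. Both Hnrnph3 segments thus had lower inclusion at a gene count that did not pass the test.

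Hnrnph1 had higher values at a pair of segments. The 50 nt exon that holds the end of its coding region (exon 14 of 15, chr11:50385141-50385190, plus strand) had PSI 0.837, 0.842 and 0.830 in the controls and 0.876, 0.901 and 0.904 in libraries labelled L-DL KD. Each group was tight and they lay apart, at a mean difference of 0.0578 (edgeR unadjusted p = 0.0115, adjusted p = 0.246) on 803 to 1099 reads per library, the deepest of the 7 events. A 197 nt intron of Hnrnph1 (chr11:50379624-50379820), kept in 2 annotated processed transcripts and spliced out of the coding ones, had PSI 0.0996, 0.0978 and 0.129 in the controls and 0.175, 0.164 and 0.192 in libraries labelled L-DL KD. This event had the lowest p of the 39 (mean difference 0.0681, edgeR unadjusted p = 0.00653, adjusted p = 0.201). It passed with adjusted p = 0.0335 by edgeR when only events with a mean of at least 50 reads, and at least 5 of each form, were tested.

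In Hnrnph2, a 45 nt exon of the 5′ untranslated region (chrX:134602918-134602962, plus strand) had PSI 0.642, 0.621 and 0.557 in the controls and 0.708, 0.698 and 0.782 in libraries labelled L-DL KD, without overlap. The mean difference was 0.123 (edgeR unadjusted p = 0.0482, adjusted p = 0.374), and the unadjusted p rose above 0.05 when any one library was left out.

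The most covered tested events of the other genes showed little difference. In Hnrnpl, a 111 nt intron that is coding in 1 annotated transcript (chr7:28818533-28818643) had PSI 0.364, 0.349 and 0.345 in the controls and 0.392, 0.364 and 0.390 in libraries labelled L-DL KD (edgeR unadjusted p = 0.450). Its groups did not overlap, by a margin smaller than the rounding of these values. In Hnrnpll, a 72 nt coding exon was included at PSI 0.970 to 1 (edgeR unadjusted p = 0.172). In Hnrnpf, a 61 nt exon of the untranslated region was included at PSI 0.990 to 1 (edgeR unadjusted p = 0.772). The 93 nt coding exon of Pcbp2 (chr15:102485948-102486040), which separates known protein isoforms, had mean PSI 0.553 ± 0.0210 in the controls and 0.554 ± 0.0153 in libraries labelled L-DL KD (SD, n = 3 each), on 1101 to 1381 reads per library, so that the means differed by less than the spread between replicates. In Hnrnph3, the 116 nt coding exon with the most reads was included at PSI 0.983 to 1 (edgeR unadjusted p = 0.620). In Ptbp1, a 120 nt stretch at an alternative 3′ splice site was included at 0.950 to 1 (edgeR unadjusted p = 0.111), and in Ptbp3 a 15 nt stretch at 0.938 to 1 (edgeR unadjusted p = 0.677).

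Splicing events of genes known from the literature as targets of these proteins were listed next, 17 genes in all. Bcl2l1 and Oprm1 had no event in the table. All events of the other genes were counted, whether or not these proteins are known to act on that segment. Of 64 tested events in 15 genes, 14 had an unadjusted p under 0.05 by edgeR (21.9%, beside 13.3% of all events), of which 3 had higher and 11 lower inclusion under the L-DL KD label. None of them had an adjusted p under 0.05, the lowest being 0.0516, whereas some passed under a stricter filter, as given below. By limma, 11 of 64 events had an unadjusted p under 0.05 (17.2%, beside 12.6% of all events) and 0 passed the adjustment. Among the 14 the groups did not overlap in 12, beside 18.4% of all events. The 14 were picked by a low p, which itself favours groups that lie apart. Without the third L-DL KD library of the splicing table, 8 of 60 tested events (13.3%) had an unadjusted p under 0.05, beside 10.7% of all events.

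**Figure D5:**
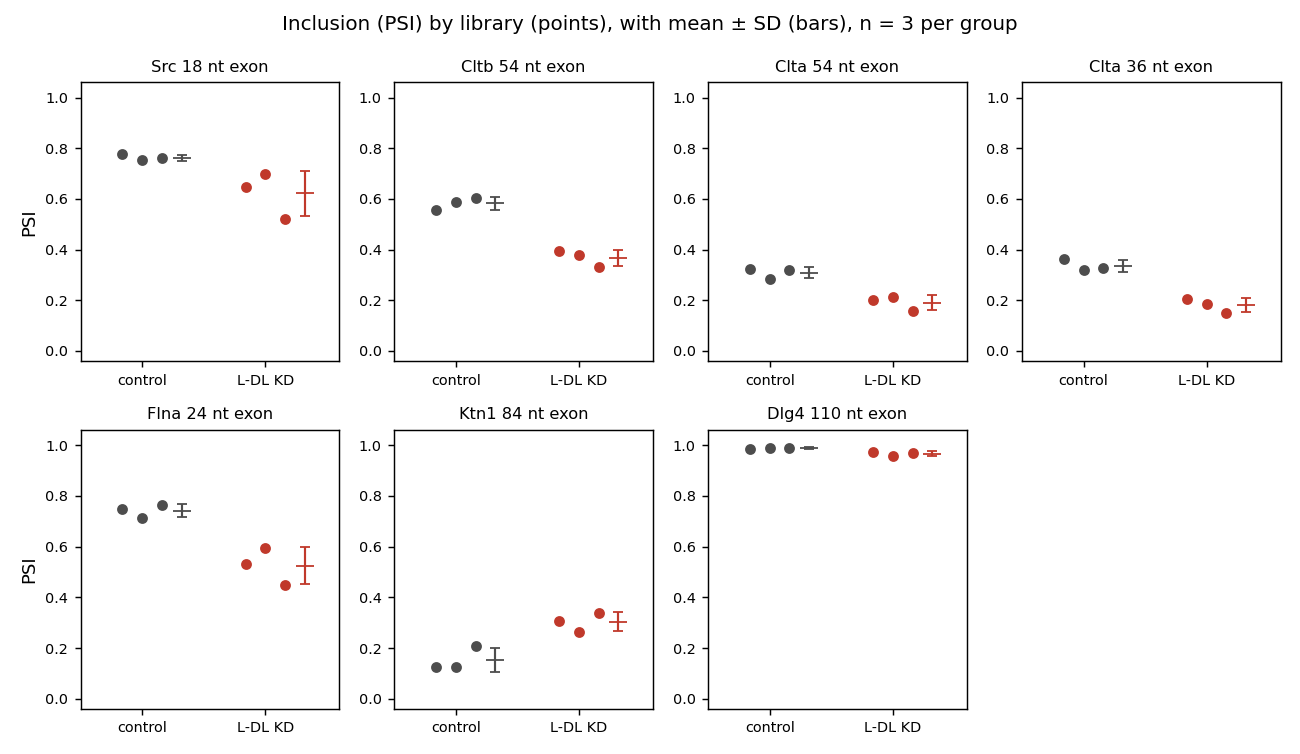
PSI (vertical axis) of 7 exons in genes that PTB proteins are known to act on, in each of 3 control and 3 L-DL KD libraries (points), with mean and SD (bars). The Cltb 54 nt, Clta 54 and 36 nt, Src 18 nt and Flna 24 nt exons lie lower in every L-DL KD library, and the Ktn1 84 nt exon lies higher.

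Clathrin light chains, which coat vesicles with clathrin, carry short inserts in neurons. The inserts of Clta and Cltb of 54 nt are sister exons, shown with capitals at the 37 of 54 positions they share, and both are coding (Clta chr4:44030215-44030268, plus strand; Cltb chr13:54597026-54597079, minus strand).
Clta 54 nt exon: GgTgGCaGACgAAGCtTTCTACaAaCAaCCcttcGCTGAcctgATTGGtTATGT
Cltb 54 nt exon: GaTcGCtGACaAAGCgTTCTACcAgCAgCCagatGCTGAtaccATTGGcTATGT

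The Cltb insert had PSI 0.554, 0.588 and 0.604 in the controls and 0.394, 0.377 and 0.331 in libraries labelled L-DL KD, far apart. Mean PSI was 0.582 ± 0.0253 and 0.367 ± 0.0326 (SD, n = 3 each), a difference of -0.215 (edgeR unadjusted p = 0.000138, adjusted p = 0.0516) on 672 to 1234 reads per library. The Clta 54 nt insert, against transcripts without either insert, had PSI 0.322, 0.283 and 0.320 in the controls and 0.200, 0.213 and 0.158 in libraries labelled L-DL KD, without overlap (difference -0.118, edgeR unadjusted p = 0.00243, adjusted p = 0.140). Its 36 nt neighbour had PSI 0.363, 0.319 and 0.327 in the controls and 0.205, 0.186 and 0.151 in libraries labelled L-DL KD, also apart (difference -0.156, edgeR unadjusted p = 0.000309, adjusted p = 0.0667). Both Clta events share their skipping reads and are not independent. A further Clta event, the 36 nt insert in transcripts that hold the 54 nt insert, had a difference of -0.0663 with overlap (edgeR unadjusted p = 0.0469).

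The 18 nt N1 exon of the Src kinase (chr2:157458843-157458860, plus strand) is a neuronal exon on which repression by PTB was first worked out, and the 24 nt exon of Flna (chrX:74232967-74232990, minus strand) is a short coding exon of the actin crosslinker filamin A. Capitals mark GGG, which 13.0% of 131 internal coding-transcript exons of 18 nt and 13.0% of 200 of 24 nt hold.
Src 18 nt exon: gaggaaggtggatgtcag
Flna 24 nt exon: tgtcaatcggaggtcacGGGctag

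The Src exon had PSI 0.776, 0.753 and 0.760 in the controls and 0.647, 0.697 and 0.522 in libraries labelled L-DL KD, all of them below the controls (difference -0.142, edgeR unadjusted p = 0.0436, adjusted p = 0.367). The Flna exon had PSI 0.750, 0.712 and 0.765 in the controls and 0.532, 0.594 and 0.447 in libraries labelled L-DL KD, also apart (difference -0.218, edgeR unadjusted p = 0.00739, adjusted p = 0.209). Exon 18 of Dlg4, which encodes the postsynaptic scaffold PSD-95 and is skipped under PTB control before neurons mature (110 nt, chr11:70043658-70043767), had PSI 0.984, 0.991 and 0.990 in the controls and 0.975, 0.956 and 0.970 in libraries labelled L-DL KD. This difference of -0.0214 was small, without overlap, on 1351 to 2018 reads per library (edgeR unadjusted p = 0.00203, adjusted p = 0.133).

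The 84 nt exon of Ktn1, which encodes kinectin, lay in the other direction, and had PSI 0.124, 0.125 and 0.209 in the controls and 0.307, 0.264 and 0.340 in libraries labelled L-DL KD, without overlap (difference 0.151, edgeR unadjusted p = 0.00573, adjusted p = 0.192). The other events with an unadjusted p under 0.05 by edgeR were 3 of the calcium channel gene Cacna1c (differences 0.106, -0.0936 and -0.0751), a 9 nt stretch of Dlg4 (0.0706), a 1124 nt stretch of Tpm1 (-0.107) and a 29 nt exon of Kcnma1 on 16 to 26 reads per library (-0.173). These segments of target genes were measured in the same tissue RNA in which neuronal markers were mostly called lower and the microglial markers higher. The part of cell makeup in their PSI was not tested.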

How the data were processed

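Hippocampal RNA of 3 control and 3 L-DL KD libraries was analysed. Per Ensembl gene, the authors deposited unnormalized read counts, together with the rMATS table of splicing events with inclusion and skipping junction counts and effective form lengths. Submitters' processing notes name HISAT2 (2.1.0), HTSeq (0.6.1), Bowtie (1.1.2) and mm10. Use of strand is not given in the sources used here. The deposited rMATS p-values, FDR and inclusion differences are the authors' own comparison and were not used. Their first sample group was read as L-DL KD and the second as control, from the rMATS sign convention and the study's definition of the difference, and the comma-separated values carry no replicate numbers, so that library 1 to 3 of an event is a position only.

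Gene counts were tested with edgeR (4.0.16, TMM scaling, quasi-likelihood, Benjamini-Hochberg) where 3 or more libraries had 10 or more counts. Junction counts were tested by edgeR over 12 columns (inclusion and skipping in 6 libraries) with a library effect, where an event averaged 20 or more counts a library and 1 or more of either form. Both fits used R (4.3.3) and were tested on simulated data, and ran over all genes or events. For single values, 3 against 3 libraries, two-sided exact permutation tests were run in scipy (1.17.1). Levels per kb used merged exons of GENCODE M21. Counts depend on depth, which was 16052529 to 17913064 gene reads and 6760349 to 7939931 junction counts per library.

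Members and gene lists were chosen with earlier results of these data known. Named were all members, each member's most covered tested event, its events with unadjusted p under 0.05, the 34 nt exons of the PTB genes and the 78 and 57 nt forms of Ptbp1, the 2 genes of lowest adjusted p in each direction of a list, and target events with unadjusted p under 0.05 or a known neuronal exon. The Hnrnph1 139 nt exon, and further list genes given by fold change, were chosen after their values were seen. One listed target gene is not reported here and is left out of the counts of target events. Alternatives were DESeq2 (1.42.0), limma (3.58.1, pseudocount 0.5), a replicate block, scaling by library size, looser and stricter filters, and dropping 1 library at a time.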

Additional observations from a re-analysis of the deposited data

How the results depend on the processing

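The same 5 of the 10 genes were called by DESeq2, with library size scaling, without a filter, with filterByExpr and without any one L-DL KD library, and 4, all but Hnrnpl, without any one control library. Same-numbered libraries did not deviate together (r = 0.0535, 0.127 and -0.107), and with a replicate block 5 of the 10 genes and 4635 of all genes were called. The log2 fold change of Hnrnph1 turned positive with library size scaling (0.0072), without control replicate 3 and without L-DL KD replicate 1, and ranged from -0.14 to 0.091 with 1 library left out. Over these alternatives the adjusted p ranged from 0.000142 to 0.0330 for Ptbp1, from 0.000588 to 0.0293 for Ptbp2, from 0.000712 to 0.0456 for Ptbp3, from 0.000839 to 0.0471 for Hnrnpf and from 0.00407 to 0.0826 for Hnrnpl.

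Member events with an adjusted p under 0.05 numbered 0 except under the filter of 50 counts and 5 of each form, where 1 of 25 tested passed, with 504 of 8584 events called in all. Fewer events are tested under that filter. At an unadjusted p under 0.05 there were 7 and 8 member events with the looser and the stricter filter, 1 by limma and 4 to 6 with 1 library left out. The cause was not tested. Without a library the PSI difference turned sign in 4 events near 0 difference, which ranged from -0.00249 to 0.00101 for the Hnrnpf 61 nt exon, from -0.00542 to 0.00292 for the Hnrnph3 116 nt exon, from -0.0735 to 0.0513 for the Ptbp3 34 nt exon and from -0.0103 to 0.0105 for the Pcbp2 93 nt exon. Of 106 values of named PSI differences, computed without effective lengths or with 1 library left out, 77 kept their side, 18 lost an unadjusted p under 0.05, 1 gained it, 1 moved and 9 turned sign. For the target genes, an alternative added after seeing the data, the counts were 8 to 16 in place of 14, with 8 without L-DL KD position 3. Under the stricter filter 7 of 35 tested target events passed the adjustment, beside 504 of 8584 events in all. Junction depth limits the thinnest events, at 11 reads in a library for a Ptbp1 event and 16 for the Kcnma1 exon.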

Other observations

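Several segments outside the naming rule were chosen after their values were seen and are given as values only. A 60 nt exon of the 5′ untranslated region of Hnrnpf (chr6:117907149-117907208) had PSI 0.362, 0.471 and 0.393 in the controls and 0.492, 0.566 and 0.568 in libraries labelled L-DL KD, without overlap (edgeR unadjusted p = 0.0855). The Ptbp1 event that sets its 146 nt exon against the 34 nt exon gave PSI 0.593, 0.569 and 0.625 in the controls and 0.674, 0.754 and 0.753 in libraries labelled L-DL KD, also apart (edgeR unadjusted p = 0.101). This PSI is not a share of all Ptbp1 transcripts. As a skipped exon, the 146 nt exon had PSI 0.992 to 1 and the 34 nt exon 0.887 to 0.980, so most transcripts hold both.

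The exons by which hnRNP L and hnRNP LL transcripts are annotated to enter NMD showed no shift beyond the spread of the libraries. The 70 nt exon of Hnrnpl, found in 1 NMD transcript and in no coding one, had mean PSI 0.102 ± 0.0252 in the controls and 0.123 ± 0.0361 in libraries labelled L-DL KD (SD, n = 3 each). The 83 nt exon of Hnrnpll, likewise in 1 NMD transcript only, had 0.164 ± 0.00184 and 0.166 ± 0.0311 (SD, n = 3 each).

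A group of 3 Ptbp1 events, the 120 nt stretch at an alternative 3′ splice site among them, share the same skipping reads. In L-DL KD position 3 there were 11 such skipping reads, beside 0 or 1 in each other library. The 39 nt coding exon of Pcbp2 had mean PSI 0.708 ± 0.0366 in the controls and 0.757 ± 0.0400 in libraries labelled L-DL KD (SD, n = 3 each; edgeR unadjusted p = 0.212).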
